A study of Homo sapiens with 6 samples.

Results

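FP671120.3, FP671120.4, FP236383.2 and FP236383.3 are 4 noncoding genes near the start of chromosome 21 that stand among the most abundant entries of a prostate cancer RNA sequencing comparison. They were chosen by Ensembl identifier and are 4 of the 6018 genes listed. Their high level and their high fold change were both known when they were chosen, so these values are described here and not tested.

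The cells were C4-2B, a widely used prostate cancer cell line that descends from LNCaP by way of C4-2. The labels give 3 libraries of the parental line, carried in 1% DMSO, with 6 months recorded and given as passage 0. The other 3 libraries are of a subline given as passage 15 to 18. That subline had been taken stepwise through 1 to 20 µM abiraterone, an inhibitor of the androgen-synthesis enzyme CYP17A1, for at least 6 months, and was then kept in 5 µM. Both lines grew in RPMI-1640 with 10% serum, and 10 µM abiraterone is named before RNA extraction in words that may cover one line or both. The selected cells are 1 line, and no label says whether the libraries of one line were grown as separate cultures. Passage number and drug history cannot be told apart in this design.

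The values are the authors' own contrast between conditions named C and V, with no value per library, so depth per library is unknown and no spread between libraries can be shown. A positive log2 fold change means more RNA counted in C. The header of the authors' deposited table calls C control and V vehicle, while V is also the letter in the titles of the parental libraries. The table does not say which cell line C is, so directions stay as C and V. Every listed gene has p below 0.05 and lies 1.20 or more from 0 on the log2 scale, so a gene that is not listed may still be abundant. Of the 10 prostate line markers looked for, KLK3, KLK2 and KRT8 were listed. In bulk RNA, fewer cells with an RNA and less RNA per cell cannot be told apart.

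Ribosomal DNA lies in tandem copies on the short arms of 5 human chromosome pairs, chromosome 21 among them. RNA polymerase I copies each unit into a long precursor, which is cut into the 18S rRNA of the small ribosomal subunit and the 5.8S and 28S rRNAs of the large one. These RNAs carry no long poly(A) tail and make up most of the RNA in a cell, so library kits either select poly(A) RNA or remove rRNA. The labels' protocols name both a TruSeq RNA kit and a TruSeq total RNA kit that keeps strand, and do not tie either to particular libraries.

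All 4 genes are lincRNA genes of a single exon of 923 bases on the minus strand in GENCODE release 29 (GRCh38). The build behind the authors' deposited table is not given in the sources used here. FP671120.3 (ENSG00000280800) lies at chr21:8210384-8211306 and FP671120.4 (ENSG00000281383) at chr21:8254592-8255514. FP236383.2 (ENSG00000280614) lies at chr21:8393419-8394341 and FP236383.3 (ENSG00000281181) at chr21:8437629-8438551. The RefSeq gene table of GRCh38.p14 places FP671120.3, FP236383.2 and FP236383.3 wholly inside the 18S rRNA genes RNA18SN2, RNA18SN3 and RNA18SN1, within the precursor genes RNA45SN2, RNA45SN3 and RNA45SN1. FP671120.4 lies wholly inside RNA18SP5, which RefSeq types as a pseudogene, and no precursor gene of RefSeq contains it. The 5.8S genes next to the 4 genes, 1265 to 1271 bases beyond their upper ends, are on the plus strand. Without counting by strand, reads from 18S rRNA and reads from these antisense genes cannot be told apart, and whether the counting used strand is not given in the sources used here.

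The sequences carry the main difficulty of reading these genes one by one. The transcripts of FP671120.3, FP236383.2 and FP236383.3 are identical over all 923 bases. FP671120.4 differs from them by 4 single-base edits (99.6% identity over 924 aligned columns), and all of these fall in the first 300 bases. The first 300 bases are shown 5′ to 3′ as GENCODE release 29 (GRCh38) gives the minus-strand transcripts, with the stretches that differ in capitals.

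FP671120.3, FP236383.2 and FP236383.3: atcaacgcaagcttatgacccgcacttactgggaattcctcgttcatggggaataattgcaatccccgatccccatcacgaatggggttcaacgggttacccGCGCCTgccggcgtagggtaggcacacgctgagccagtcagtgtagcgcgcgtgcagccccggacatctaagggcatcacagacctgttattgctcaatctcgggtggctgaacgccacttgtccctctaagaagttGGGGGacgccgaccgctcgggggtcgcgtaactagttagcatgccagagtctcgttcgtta

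FP671120.4: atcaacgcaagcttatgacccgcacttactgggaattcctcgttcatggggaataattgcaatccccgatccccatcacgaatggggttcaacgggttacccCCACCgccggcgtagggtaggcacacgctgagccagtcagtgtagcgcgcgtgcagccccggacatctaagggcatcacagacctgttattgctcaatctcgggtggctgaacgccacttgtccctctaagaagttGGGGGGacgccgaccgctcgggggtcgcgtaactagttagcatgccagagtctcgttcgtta

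The first capital stretch runs from base 103 to 108 in the 3 identical genes and from base 103 to 107 in FP671120.4. The second is a run of 5 G in the identical genes and of 6 G in FP671120.4. The libraries were read as 50-base single ends, so windows of that length show what a read could resolve. Of the 874 windows of 50 bases in FP671120.3, 874 occur in FP236383.2 and FP236383.3 as well. In FP671120.4, 775 of 874 windows (88.7%) occur in another of the 4 genes, and 99 do not. Windows were searched in GENCODE transcripts only, not in the genome or in the RefSeq rRNA genes and pseudogene that contain the 4 genes. The search therefore cannot show that the windows are unique to the 4 genes. Among 206690 other annotated transcripts on both strands, no gene shared a 50-base window with them. With 30-base windows 1 gene did, the processed pseudogene AC010970.1 (ENSG00000225840), which lies on chromosome Y at chrY:10197256-10199103. It shares 12 such windows and in the authors' deposited table it too was higher in C (log2 fold change 7.0 ± 1.4, listed mean 5.97, adjusted p = 2.58e-06 from DESeq2). GC content was 54.8% in each of the 4 genes, against a median of 45.4% over 329 other listed lincRNA genes, of which 41 were at or above 54.8%.

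The 4 genes were abundant, and unequally so. The listed mean in the authors' deposited table, the mean of normalised counts over all libraries, was 44458 for FP671120.4 and 22197 for FP236383.2. It was 7956 for FP236383.3 and 877 for FP671120.3 in the authors' deposited table. By size these rank 3, 5, 14 and 294 among the 6018 means. Among the 3 genes of identical sequence the largest mean was 25.3 times the smallest. Counts that differ this much over the same letters depend on how reads with several equal matches were assigned, which is not given in the sources used here. The 4 means added to 75489, or 5.30% of the sum over all listed genes, and FP671120.4 made up 58.9% of the 75489. A different division of the same reads among the 4 genes would leave their sum unchanged. Reads shared with copies of these sequences elsewhere in the genome could still raise or lower it. That was not tested, since the windows were not searched in the genome.

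Per kilobase of exon, which puts genes of different length on one scale, FP671120.4 had 48167 normalised counts and FP236383.2 had 24048. FP236383.3 had 8620 and FP671120.3 had 951 on the same per-kilobase scale. Of the abundant genes outside the 4, SNORD3A, which encodes the U3 RNA that guides cleavage of the 18S precursor, had 101765 per kilobase. RN7SL396P, a copy of the 7SL RNA of the signal recognition particle, had 97505. MALAT1 and NEAT1, long nuclear RNAs, had 10176 and 921, and the glycolysis enzyme GAPDH had 6597. The order of levels per kilobase thus put SNORD3A and RN7SL396P above FP671120.4, and MALAT1 and GAPDH on either side of FP236383.3. No spread between libraries is given, so neighbours in this order cannot be said to differ.

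All 4 genes were higher in C, and 4 of 4 had an adjusted p under 0.05. Of the 6014 genes given an adjusted p, 46.1% were called higher in C; since this contrast helped to choose the 4 genes, nothing is read from the comparison. The background was 43.4% for genes called higher in V, 89.5% in either direction and 50.5% for lincRNA genes called higher in C. Stricter rules gave a background of 38.2% higher in C for an adjusted p under 0.01, 27.4% with a log2 fold change of 2 or more, 11.8% with a mean of 100 or more and 31.5% with a 95% interval beyond a log2 of 1. In either direction it was 53.7% for the fold rule and 26.4% for the rule on the mean. All 4 genes met each of these rules. FP236383.3 had the largest log2 fold change of all listed genes, 12.12 ± 0.90 (SE) with adjusted p = 3.48e-40 from DESeq2 in the authors' deposited table. FP236383.2 followed at 10.71 ± 0.99 and FP671120.3 at 10.34 ± 0.96, ranking 3 and 5 in the authors' deposited table (adjusted p = 4.35e-26 and 1.37e-25, DESeq2). FP671120.4, the most abundant and the one inside the pseudogene, had the smallest, 8.53 ± 1.01, in the authors' deposited table (adjusted p = 4.14e-16, DESeq2). The median of the 4 was 10.53, against 1.26 over all listed genes and 1.58 over the 333 listed lincRNA genes.

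**Figure D1:**
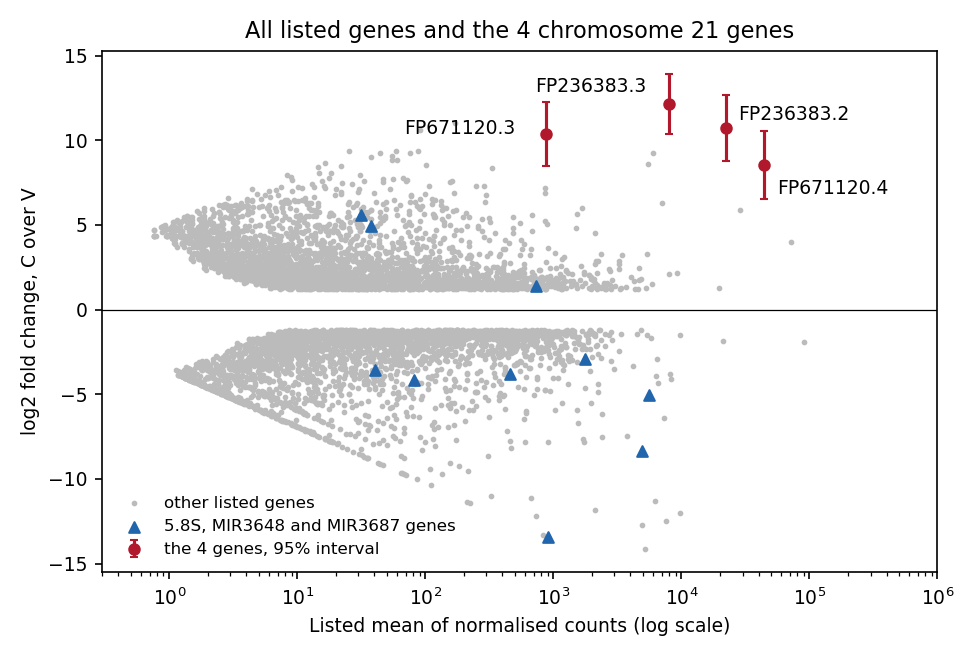
Log2 fold change of C over V (y axis) against the listed mean of normalised counts (x axis, log scale) for all 6018 listed genes in grey, the 4 genes in red with 95% intervals, and listed 5.8S, MIR3648 and MIR3687 genes as blue triangles. The 4 genes sit at the upper right, between 8.53 and 12.12, while the triangles lie on both sides of 0.

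The intervals around these folds were wide. The 95% interval of the fold ran from 93.5 to 1469 for FP671120.4 and from 438 to 6430 for FP236383.2. It ran from 1320 to 15089 for FP236383.3 and from 350 to 4813 for FP671120.3. The log2 fold changes of the 3 identical genes spanned 1.78, less than the interval of each from its lower to its upper end. The 4 intervals on the log2 scale share the stretch from 10.37 to 10.52.

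Levels per condition are not listed and were derived as the pair of means that gives the listed mean and fold, taking both sides as equally large. FP671120.4 came to 88677 normalised counts in C and 239 in V. FP236383.2 came to 44367 in C and 26.4 in V, and FP236383.3 to 15909 in C and 3.56 in V. FP671120.3 came to 1753 in C and 1.35 in V. In V, FP671120.3 and FP236383.3 were thus at a few counts, and FP236383.2 at 26.4. FP671120.4 held 88.4% of the summed V level of 271 and 58.8% of the summed C level of 150706. The V levels of FP671120.3 and FP236383.3 are so low that a change of a few counts would move their folds. Their listed standard errors (0.96 and 0.90) were still no larger than those of FP236383.2 (0.99) and FP671120.4 (1.01), and all 4 are wide. The 3 identical genes taken as 1 came to 62029 in C and 31.4 in V, a log2 ratio of 10.95. Since 88.7% of the 50-base windows of FP671120.4 are shared, its division from these 3 may also depend on how reads were assigned. The summed levels in C and V may likewise depend on reads shared with copies outside the 4 genes, which was not tested. The 4 genes held 10.6% of the derived C level of all listed genes and 0.0190% of the derived V level.

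**Figure D2:**
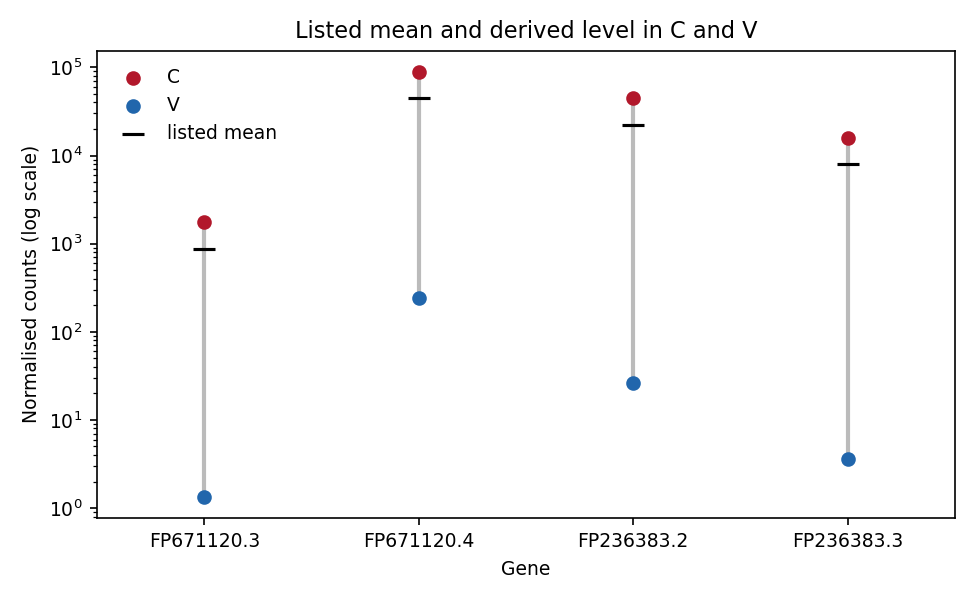
Listed mean (black bar) and derived levels in C (red) and V (blue) for each of the 4 genes, in normalised counts on a log scale; a grey line joins the levels of a gene and no error is available. Levels in C run from 1753 to 88677 and in V from 1.35 to 239. The genes were chosen with their high fold known, so nothing is read from the gap between C and V.

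The 4 genes had wide standard errors for their listed mean, which pools C and V. A low level in 1 condition also widens a standard error, and derived V levels of the 4 genes ran from 1.35 to 239. The listed standard error was 0.90 to 1.01, whereas 290 other listed genes with a mean of at least 877 had a median of 0.088. The table's limit on p keeps a gene of modest fold only if its standard error is small, while a large fold passes with a large one, so the low median is partly set by that limit. Only 4 of the 290 exceeded the smallest standard error of the 4 genes: the antiviral enzyme RSAD2, the neuronal splicing factor SRRM4, MIR3687-1 and MIR3687-2. The part of each squared standard error that counting noise gives at the derived levels was first taken off. The rest can be turned into the coefficient of variation between libraries that would produce it, if 3 libraries stood on each side. That came to 85.9% for FP671120.4, 82.8% for FP236383.2, 66.3% for FP236383.3 and 54.7% for FP671120.3, against a median of 6.21% over the 290 genes. Among the 290, SRRM4 and MIR3687-1 lay above 54.7%. Which libraries were high or low cannot be seen in the values used here.

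**Figure D3:**
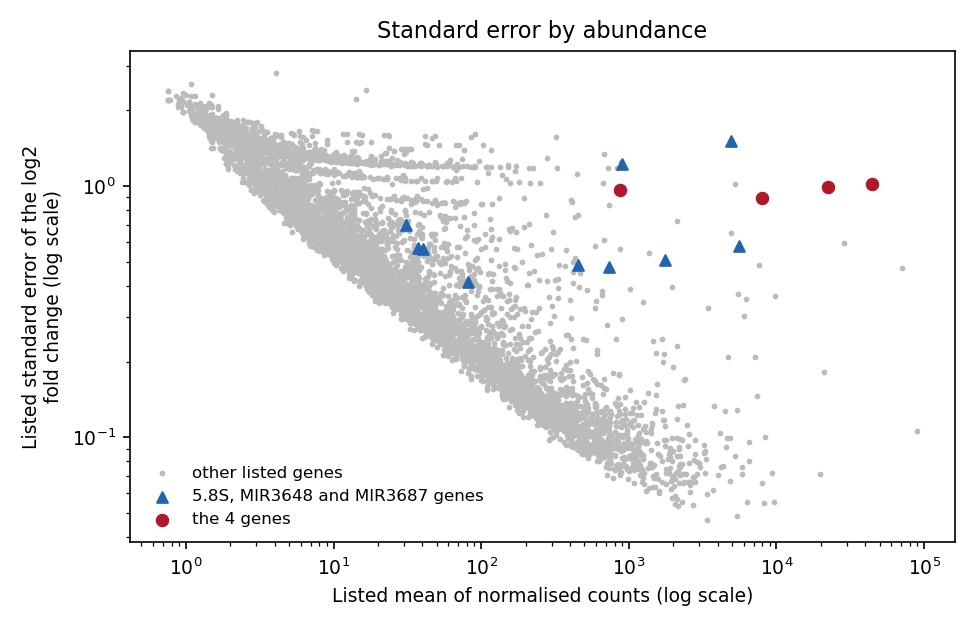
Listed standard error of the log2 fold change (y axis, log scale) against the listed mean (x axis, log scale) for all listed genes in grey, the 4 genes in red, and listed 5.8S, MIR3648 and MIR3687 genes as blue triangles. Standard errors of grey points fall with the mean, to a median of 0.088 at means of at least 877, while the 4 genes stay between 0.90 and 1.01. The mean pools C and V, and derived V levels of the 4 genes were 1.35 to 239.

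Other genes of the ribosomal DNA did not all share the direction of the 4 genes. GENCODE places MIR3648-1 and MIR3687-1 in the same unit as FP671120.3, before the 18S rRNA, where the precursor has its external spacer. The authors' deposited table has both higher in V, at -2.93 ± 0.51 for MIR3648-1 and -8.33 ± 1.5 for MIR3687-1. Their copies MIR3648-2 and MIR3687-2, farther along chromosome 21, were also listed as higher in V, at -5.02 ± 0.58 and -13.44 ± 1.22 in the authors' deposited table. In sequence MIR3648-1 equals MIR3648-2 and MIR3687-1 equals MIR3687-2, so reads wholly inside these genes cannot be divided between the copies. The sequence around them was not compared. The derived level of MIR3687-1 was 30.8 in C and 9868 in V, and that of FP671120.3, annotated in the same unit, 1753 in C and 1.35 in V. Since reads wholly inside identical copies cannot be placed, neither value can be tied to 1 unit.

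The listed 5.8S genes differed in direction by annotated place. GENCODE has 4 on chromosome 21, all of 1 sequence, and 3 of them were listed, all higher in C. RNA5-8SN2, RNA5-8SN3 and RNA5-8SN1 stood at 5.56 ± 0.70, 1.41 ± 0.47 and 4.92 ± 0.57 in the authors' deposited table. The 5.8S gene beside FP671120.4 was not listed. Of 4 on unplaced scaffolds, 3 were listed and all 3 were higher in V, at -3.59 ± 0.56 for RNA5-8SN5, -4.18 ± 0.41 for RNA5-8SN4 and -3.81 ± 0.49 for ENSG00000275757 in the authors' deposited table. Reads wholly inside the identical chromosome 21 copies cannot be divided between them. The sequence around these copies and the sequences of the scaffold copies were not compared. The split by place may thus depend on how reads with several matches were assigned, which was not tested. RNA5-8SN3 came to a derived 1061 in C and 400 in V, and ENSG00000275757 to 60.6 in C and 852 in V. The 5.8S level was low beside that of the 4 genes: the largest listed mean in the authors' deposited table was 731, for RNA5-8SN3.

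**Figure D4:**
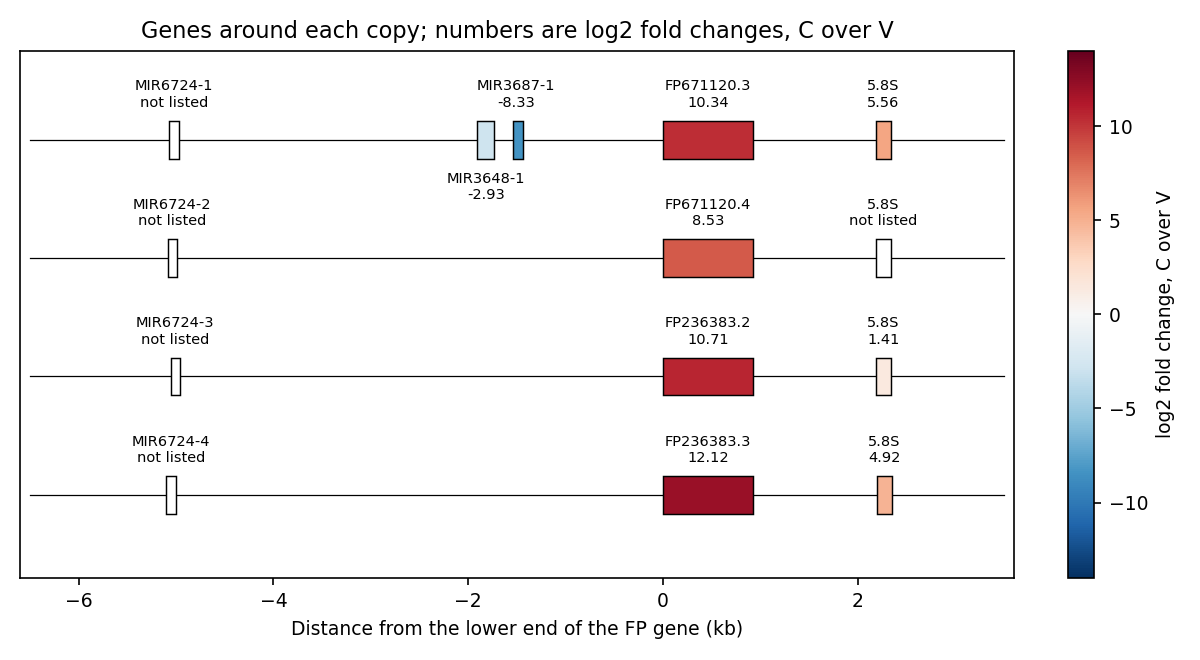
Annotated genes around each of the 4 genes, drawn to scale as distance in kb from the lower end of the FP gene and coloured by log2 fold change of C over V (white boxes, not listed). The 4 FP genes and the listed 5.8S genes were higher in C, while MIR3648-1 (-2.93) and MIR3687-1 (-8.33) were higher in V.

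Within 1 Mb of the 4 genes, or on clones of the chromosome 21 short arm picked by name, 13 other genes were listed. Of these, 8 were called with more RNA in C and 5 with more in V. FP236383.1 (ENSG00000280441), a spliced lincRNA on the plus strand whose span covers FP236383.2, went the other way, at -1.41 ± 0.27 in the authors' deposited table. Its exons do not touch FP236383.2. In the authors' deposited table the lincRNAs CU633967.1 (2.26 ± 0.15), CU634019.1 (2.07 ± 0.30), CU633904.1 (1.57 ± 0.26) and FP236241.1 (2.62 ± 0.48) were higher in C, and so was the unprocessed pseudogene CR392039.5 (3.10 ± 0.51). None of these 5 reached the fold of any of the 4 genes.

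Genes of the machinery that makes rRNA were looked up by list. Of 24 genes of RNA polymerase I transcription, 1 was listed and called, POLR1G, a subunit of that polymerase, at 2.00 ± 0.15 in the authors' deposited table. Of 42 rRNA processing genes, 5 were called and all were higher in C, with a median log2 fold change of 1.29. Those with the smallest p were the nucleolar chaperone NPM1 (1.29 ± 0.05), the polymerase I cofactor TCOF1 (2.12 ± 0.08), and WDR12 (1.24 ± 0.09) and EXOSC2 (1.27 ± 0.10), which act in rRNA maturation, in the authors' deposited table. Of 22 ribosome assembly genes, MDN1 (1.54 ± 0.09), an ATPase that acts on the maturing large subunit, and PA2G4 (1.42 ± 0.08) were called in the authors' deposited table. The 8 listed genes of these 3 lists were all called higher in C. Beside that, 46.1% of the 6014 genes given an adjusted p were called higher in C, and 934 of 2736 called protein-coding genes. Most genes of the 3 lists were not listed, and the lists were chosen with earlier results known, so nothing is read from this. Genes that were not listed may have missed either limit of the table, so the percentages of listed genes called are no background for counts out of a whole list. Of the 25 rRNA genes looked for by symbol, only 10 symbols were known to the reference tables. Of these 6 were called, the 5.8S genes RNA5-8SN1 to RNA5-8SN5 and RNA5S9, a 5S gene at 5.34 ± 1.80 with a listed mean of 1.37 in the authors' deposited table.

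RNAs made by RNA polymerase III went both ways. Of 20, 4 were called. In the authors' deposited table BCYRN1, a brain cytoplasmic RNA (2.68 ± 0.13), and the minor spliceosome RNA RNU6ATAC (2.54 ± 0.84) were higher in C. The Y RNAs RNY3 (-5.01 ± 1.41, listed mean 5.81) and RNY4 (-4.08 ± 1.73, listed mean 1.55) had more RNA in V, by the authors' deposited table. These families have many near-identical copies, so their division of reads is uncertain.

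Among called genes at least as abundant as FP671120.3, those closest in fold to the 4 genes were small RNAs. Likeness was taken as the distance of the log2 fold change from the median of 10.53, over this 1 comparison. The 2 closest were the U1 RNA genes RNVU1-29 (9.22 ± 0.30) and RNU1-4 (8.58 ± 0.37) in the authors' deposited table. The 7SL copies RN7SL752P (6.32 ± 0.21), RN7SL381P (6.01 ± 0.13) and RN7SL396P (5.88 ± 0.59) came next in the authors' deposited table. Closeness to 10.53 favours genes higher in C. Some less abundant 7SL copies were higher in V, such as RN7SL674P (-6.46 ± 0.57, listed mean 591) and RN7SL296P (-6.81 ± 1.13, listed mean 112), by the authors' deposited table. SNORD3A was also higher in C (4.00 ± 0.47), and MALAT1 (-1.94 ± 0.11) and NEAT1 (-1.87 ± 0.18) were higher in V, by the authors' deposited table.

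Classes of short noncoding RNA differed in how many of their called genes shared the direction of the 4 genes. Of called snoRNA genes 47 of 48 were higher in C, of scaRNA genes 6 of 6, and of snRNA genes 32 of 36. Of called misc_RNA genes, the class that holds the 7SL copies, 77 were higher in C and 18 in V. Of called rRNA genes 4 were higher in C and 3 in V, and of called miRNA genes 11 and 10. Of called lincRNA genes outside the 4, 164 of 265 were higher in C, and of protein-coding genes 934 of 2736. The part of RNA selection, rRNA removal or library kit in the result was not tested. Markers of other cell types moved the opposite way. Of 7 such markers, the authors' deposited table lists 4, all higher in V: PTPRC of leukocytes, CD14 of monocytes, PECAM1 of endothelium and COL1A1 of fibroblasts. Their derived levels were 0.164, 0.236, 0.165 and 72.4 in C and 35.7, 3.67, 14.9 and 294 in V. CD3E, VWF and DCN were not listed. Among the prostate line markers, KLK3 (prostate-specific antigen) came to 15170 in C and 3363 in V, KLK2 to 2798 and 466, and the keratin KRT8 to 1364 and 3715. The part of cell type markers in the result was not tested.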

How the data were processed

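RNA was sequenced from 3 parental and 3 abiraterone-selected C4-2B libraries, made from 1 µg of total RNA and read as 50-base single ends, per the labels' protocols. The authors compared condition C with condition V by DESeq2, and the deposited table holds that comparison alone. Per the file headers, it gives the mean of normalised counts (a signal value the authors computed), the log2 fold change by maximum likelihood, its standard error and Wald statistic (score columns of the authors), and the Wald p-value with its Benjamini-Hochberg adjustment by the authors. FastQC and Cufflinks 2.2.1 appear in the submitters' processing notes without a role. For the aligner, read counter, strand setting, handling of reads with several matches and genome build, the entry is: not given in the sources used here.

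Of the 6018 listed genes, 5935 were found in GENCODE release 29. For 4 genes an adjusted p of 0 beside a p above 0 was read as not given, and a gene was called below 0.05. The Wald statistic equalled fold change over standard error within 0.1% in 6018 of 6018 genes. Levels in C and V were solved from each gene's listed mean and fold, with sides of equal size. Shared windows were counted without mismatch on both strands in GENCODE transcript sequences, and alignment used edit distance. Calculations ran in Python 3.11.15 with pandas 2.3.3 and NumPy 2.4.6, and the derivations were tested on simulated data. With no library columns no test was run in place of the count test foreseen, and windows were not searched in the genome.

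The 4 genes and the gene lists were chosen with earlier results of these data known. Genes named are the 4 genes, listed genes within 1 Mb or on clones picked by name, up to 4 called genes per list by smallest p, the 5 abundant genes closest in fold, and the 5 other genes with the largest mean. FP236383.1's exons, the 5.8S copies on scaffolds and AC010970.1 were looked at after values were seen. Replicates may be technical; the p-values printed are the authors' and measure the spread between these libraries only.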

Additional observations from a re-analysis of the deposited data

How the results depend on the processing

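All 4 genes stayed called and higher in C with an adjusted p under 0.01, a log2 fold change of 2 or more, a mean of 100 or more, or a 95% interval beyond a log2 of 1. The 4 genes were chosen with known folds and means that lie far beyond these limits, so nothing is read from this. Their median log2 fold change of 10.53 lay between 10.34 and 10.71 without each gene in turn and was 10.54 as a weighted mean, but the log2 ratio of their summed derived levels was 9.12, since FP671120.4 dominates the sum. Over the 3 identical genes, an alternative chosen after seeing the data, that ratio was 10.95. The summed derived C level of 150706 became 188214 with 2 libraries in C and 3 in V, and 125664 with 3 and 2. The share of 5.30% became 15.2% without protein-coding genes and 5.32% over called genes. Of the windows in FP671120.4, 92.0% were shared at 36 bases and 82.4% at 75 bases, against 88.7% at 50. The 18 called genes of the 5 rRNA-related lists became 11 under a limit of 2 on the size of the log2 fold change, and 10 under a limit of 100 on the mean. No paired analysis was possible because the values used here have no column per library; for the same reason the edgeR, DESeq2, low-count filter and left-out replicate alternatives were not run. Depth per library is unknown, which leaves the V levels of FP671120.3 and FP236383.3 poorly fixed.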
